A study of Mus musculus with 12 samples.

Results

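The immediate early transcription factors described here are 10 mouse genes: Fos, Fosb and Fosl1 of the Fos family, Jun, Junb and Jund of the Jun family, the zinc finger factors Egr1 and Egr2, the nuclear regulator Ier2 and the orphan nuclear receptor Nr4a1. They were found by gene name among 24711 named rows in the files of cultured cells and 36823 named rows in the files of sorted cells, and where a name had several rows the row with the highest mean level was taken. All 10 genes had a row in both sets. Fosl1 had no row of its own in the sorted cell files, where it shared a single row with Cfl1 (cofilin) and Efemp2, so the value of that row cannot be given to Fosl1.

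In the GENCODE M21 annotation of build GRCm38, the Fos family genes lie at chr12:85473890-85477273 (Fos, plus strand), chr7:19302696-19310051 (Fosb, minus strand) and chr19:5447547-5455946 (Fosl1, plus strand). The Jun family genes lie at chr4:95049034-95052222 (Jun, minus strand), chr8:84974484-84978718 (Junb, minus strand) and chr8:70698949-70700616 (Jund, plus strand). Egr2 lies at chr10:67535475-67542188 (plus strand), Ier2 at chr8:84661331-84662852 (minus strand) and Nr4a1 at chr15:101254269-101274795 (plus strand), and Egr1 is on chromosome 18. Annotated transcripts of Jun, Junb, Jund and Ier2 have 1 exon, and the GC2 row of Jun also holds an assembled transcript.

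RNA sequencing was done on 12 mouse libraries in 4 groups of 3. In the GC2 knockdown group the prohibitin gene Phb was knocked down in GC2 cells, a cultured mouse spermatocyte line obtained from ATCC and grown with serum, and the GC2 control group is the same line without the knockdown. The SC knockout group is sorted cells labelled as spermatocytes from Phb conditional knockout mice, and the SC control group is cells with the same label from control mice. Cells of both groups were obtained by digesting seminiferous tubules with collagenase, DNase and trypsin, followed by staining with a Hoechst DNA dye and flow sorting. The labels used here do not give the knockdown method, the Cre driver or the ages of the mice, and GC2 is 1 cell line. The libraries are called biological replicates, but the cultures or animals behind each are not named, so each p-value reflects differences among libraries that may be technical repeats.

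Values are FPKM, fragments per kilobase of transcript, scaled to library size, as deposited by the authors. Phb, the targeted gene, averaged 20.0 ± 2.31 FPKM in GC2 knockdown and 54.3 ± 2.15 FPKM in GC2 control cells (SD, n = 3 each; log2 fold change -1.40, adjusted p = 6.2e-04). Phb averaged 11.6 ± 0.241 FPKM in SC knockout and 13.3 ± 0.634 FPKM in SC control cells (SD, n = 3 each; log2 fold change -0.18, adjusted p = 0.0074). The sorted cell groups also differed in cell type markers. Over all tested rows in these cells, 40.9% were called higher and 38.5% lower in SC knockout cells. Markers of pachytene and diplotene spermatocytes summed to 249 to 252 FPKM in SC knockout and 2788 to 2836 FPKM in SC control libraries, and 12 of 12 were lower. Sertoli cell markers summed to 5924 to 6105 FPKM in SC knockout and 1413 to 1487 FPKM in SC control libraries, and 16 of 16 tested were higher. The falls were uneven. Ldhc averaged 5.41 FPKM in SC knockout and 1428 FPKM in SC control cells. Sycp3 averaged 124 FPKM in SC knockout and 160.5 FPKM in SC control cells, and Sycp1 58.4 and 69 FPKM. Because these markers differ between 2 groups that carry the same label, both are called sorted cells here. The cell types and stages behind these values were not tested. In GC2 cells 6 of 12 spermatocyte markers had a row and only Mybl1, the regulator of meiotic genes, passed the filter on low values, so most spermatocyte markers had no row or low values there.

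Immediate early genes are transcribed within minutes of a stimulus, without new protein synthesis, through transcription factors that are already present. Serum response factor (SRF), with its partners of the ternary complex and myocardin-related families, binds the CArG box, and CREB or ATF factors bind the cyclic AMP response element. Fos proteins pair with Jun proteins to form the dimeric factor AP-1, while Jun proteins can also pair with each other. MAP kinases raise the transcription of these genes and alter the proteins, whereas dual specificity phosphatases and the Nab corepressors restrain the response. Enzymatic digestion of tissue is a known inducer of Fos, Jun and Egr1 in isolated cells, and both sorted groups went through it.

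Promoters are shown because known motifs for these upstream factors can be read in them. RefSeq windows of 300 bases, 250 before the start site and 50 after it, were matched for 7 of the 10 genes. The RefSeq start of Jund is 1210 bases from that of the GENCODE transcript used here, so it is not printed. Those of Fosb and Junb lie 6 and 30 bases from the GENCODE starts. Of 5 windows for Egr2 the one at the start of the GENCODE transcript was used. The stretches below are from build GRCm38.p6, 5′ to 3′ in the direction of the gene, and end at the base before the start site, except that of Egr2, which spans -80 to -51. Capitals mark matches to the motifs TGACG (the short form of the cyclic AMP response element, or CGTCA on the other strand), TGACNTCA (an AP-1 and CREB type site), the CArG box and TATAAA.
Fos, chr12:85473740-85473889, plus strand: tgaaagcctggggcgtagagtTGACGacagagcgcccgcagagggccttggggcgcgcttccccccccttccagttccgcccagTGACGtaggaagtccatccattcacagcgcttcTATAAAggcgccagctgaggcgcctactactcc
Fosb, chr7:19310046-19310195, minus strand: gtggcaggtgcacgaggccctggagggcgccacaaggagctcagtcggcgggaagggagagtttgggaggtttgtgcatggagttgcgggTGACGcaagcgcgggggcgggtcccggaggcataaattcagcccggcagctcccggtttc
Jun, chr4:95052223-95052372, minus strand: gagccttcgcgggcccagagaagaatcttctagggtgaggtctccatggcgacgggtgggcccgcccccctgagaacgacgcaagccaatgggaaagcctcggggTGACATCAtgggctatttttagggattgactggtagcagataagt
Junb, chr8:84978749-84978898, minus strand: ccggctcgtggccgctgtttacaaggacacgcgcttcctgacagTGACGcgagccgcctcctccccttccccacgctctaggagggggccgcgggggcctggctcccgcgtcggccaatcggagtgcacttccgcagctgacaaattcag
Nr4a1, chr15:101266696-101266845, plus strand: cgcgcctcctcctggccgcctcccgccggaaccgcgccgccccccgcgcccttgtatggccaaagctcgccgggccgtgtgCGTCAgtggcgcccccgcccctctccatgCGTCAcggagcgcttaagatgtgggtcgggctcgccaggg
Egr2, chr10:67537789-67537818, plus strand: tcctcagtCCATATATGGgcagcgaCGTCA

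Searched on both strands, TGACG occurred in the windows of Fos, Fosb, Junb, Egr2 and Nr4a1, 5 of the 7, against 20.8% of 32851 windows of the same length. Fos held it at -129 and at -66, counted from the start site, and a TATAAA box at -33. Nr4a1 held it 4 times, of which the copies at -69 and -40 are in the stretch above. Jun held TGACNTCA at -45 to -38, which 8.83% of all windows contain. Egr2 held a CArG box at -72 to -63, which 1.63% of all windows contain. The AP-1 site TGANTCA was in 0 of the 7 windows and in 7.81% of all windows, and TATAAA was in 2 of the 7 and in 13.6% of all. Besides that of Fos, the TATAAA match is in Junb at 0 to 5, from the RefSeq start site onward and outside the stretch above. A TGACNTCA with G at N would also hold TGACG, but none of the matches in these 7 windows overlapped. A match is a description of the letters and does not show binding. Sites more than 250 bases before the start site were not searched, and Fosl1, Egr1 and Ier2 had no window. The lack of a match therefore does not show that a gene lacks the site.

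**Figure D1:**
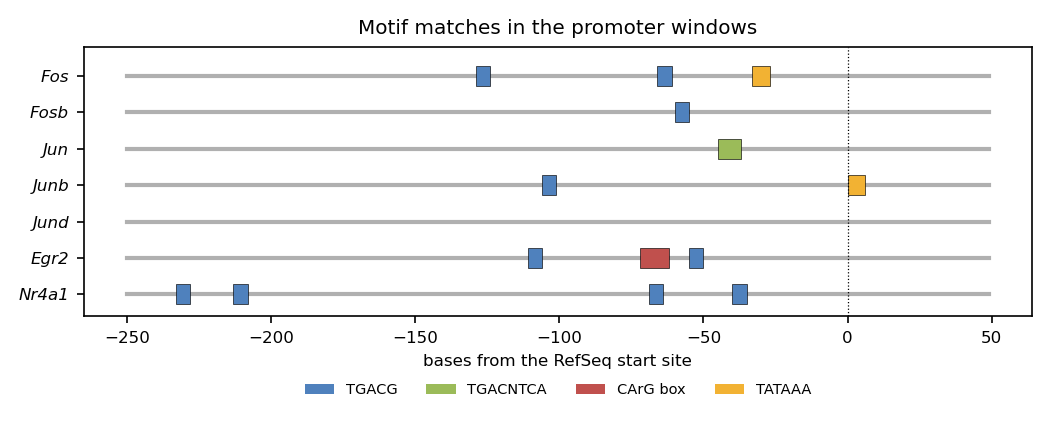
Motif matches in the RefSeq promoter windows of 7 genes. The x axis is the distance in bases from the start site (dotted line), each grey line is 1 window and each box is 1 match on either strand. Fos holds TGACG at -129 and -66 and Egr2 holds the only CArG box found within these windows, at -72 to -63.

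In sorted cells, 9 of the 10 rows were higher in SC knockout than in SC control cells and 0 were lower. Of the 9 genes on a row of their own, 8 rose. Across all 15957 tested rows 40.9% were called higher, 38.5% lower and 79.4% in either direction, so a call alone does not set these genes apart. The median log2 fold change of the 10 rows was 1.61, against 0.05 over all tested rows, and the called rows lay between 1.07 and 1.95. The groups did not overlap in 9 of the 10 rows, all higher in SC knockout cells, while over all tested rows 42.2% were higher and 39.6% lower without overlap. Of all tested rows, 11.6% were called higher with a rise of at least 1 on the log2 scale. In bulk libraries, a change in the number of cells of a type and a change in RNA per cell cannot be told apart.

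Fos, the founding member of its family, had 422, 426 and 423 FPKM in SC knockout libraries, against 117, 114 and 116 FPKM in SC control libraries. The knockout libraries lay close together and far above every control library. Fos rose by 1.86 on the log2 scale (SE 0.0205, 95% interval 1.81 to 1.91, adjusted p = 1.4e-08). By FPKM it ranked 46 of the 15957 tested rows in SC knockout and 261 in SC control cells. Fosb, a Fos relative that responds to the same stimuli, had 77.9, 76.6 and 69.1 FPKM in SC knockout libraries, against 23.5, 23.5 and 18.0 FPKM in SC control libraries. The groups did not overlap, and the third library of each was the lowest of its group. Fosb rose by 1.75 (SE 0.112, adjusted p = 1.7e-05). The row shared by Fosl1, Cfl1 and Efemp2 had 48.3, 46.0 and 46.5 FPKM in SC knockout libraries, against 21.7, 22.4 and 21.4 FPKM in SC control libraries. Its log2 fold change was 1.07 (SE 0.0309, adjusted p = 4.4e-07), the smallest of the called rows, and its reads cannot be split among the genes.

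All Jun family genes rose as well. Jun, the classical partner of Fos, had 158, 159.9 and 160.1 FPKM in SC knockout libraries, against 46.2, 46.0 and 48.0 FPKM in SC control libraries, and rose by 1.75 (SE 0.0246, adjusted p = 2.7e-08). Junb, a Jun relative that can oppose Jun on some promoters, had 122, 120.8 and 117 FPKM in SC knockout libraries, against 32.6, 28.0 and 30.3 FPKM in SC control libraries. It rose by 1.95 (SE 0.0569, 95% interval 1.81 to 2.09, adjusted p = 4.5e-07), the highest value of the 10 rows. Jund, the family member usually present before stimulation, had 124, 116 and 112 FPKM in SC knockout libraries, against 48.5, 45.9 and 47.1 FPKM in SC control libraries. It rose by 1.30 (SE 0.0422, adjusted p = 7.3e-07), with a 95% interval of 1.19 to 1.40 that lay below those of Jun (1.69 to 1.81) and Junb. In none of the 3 genes did any knockout library reach down to a control library.

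Among the AP-1 family transcripts, the shares of Fos, Junb and Jund did not overlap between the sorted cell groups. Of the summed FPKM of Fos, Fosb, Jun, Junb and Jund, Jund made up 12.7% to 13.7% in SC knockout and 17.8% to 18.1% in SC control libraries. Junb made up 13.2% to 13.5% in SC knockout and 10.9% to 12.2% in SC control libraries, and Fos 46.7% to 48.0% in SC knockout and 43.6% to 44.8% in SC control libraries. The shares of Jun and Fosb overlapped between the groups. The ratio of Fos family to Jun family FPKM was 1.24, 1.27 and 1.27 in SC knockout libraries, against 1.10, 1.15 and 1.07 in SC control libraries. The Fos family here is Fos and Fosb, because the row shared by Fosl1 was left out. Including that row made the difference smaller, as given under the dependence on processing. The means were 1.26 ± 0.0161 in SC knockout and 1.11 ± 0.0372 in SC control libraries (SD, n = 3 each), a difference of 0.15. The exact two-sided permutation test gave p = 0.1, the smallest that 3 against 3 allows.

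Egr1, a zinc finger factor induced by growth factors and stress, had 311.5, 311.5 and 311.4 FPKM in SC knockout libraries, against 104, 101 and 103 FPKM in SC control libraries. It rose by 1.59 (SE 0.0206, adjusted p = 2.1e-08), and it ranked 61 of all tested rows in SC knockout and 301 in SC control cells. Egr2, a close relative best known from myelinating glia, had 24.6, 36.2 and 7.75 FPKM in SC knockout libraries, against 10.6, 4.95 and 11.5 FPKM in SC control libraries. The third knockout library lay among the controls, so the groups overlapped, and its change of 1.09 on the log2 scale (SE 0.589, 95% interval -0.36 to 2.54, adjusted p = 0.13) did not pass. Leaving out single libraries moved it from 0.65 to 1.70, the highest being without the third knockout library (adjusted p = 0.011). Over all alternatives its adjusted p reached 0.34.

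Ier2, a short intronless immediate early gene, had 117, 114 and 112 FPKM in SC knockout libraries, against 36.1, 36.0 and 37.1 FPKM in SC control libraries, and rose by 1.63 (SE 0.0272, adjusted p = 4.9e-08). Nr4a1, a nuclear receptor without a known classical ligand, also called Nur77, had 87.7, 85.7 and 80.6 FPKM in SC knockout libraries, against 29.1, 28.8 and 27.8 FPKM in SC control libraries. It rose by 1.53 on the log2 scale (SE 0.0392, adjusted p = 2.6e-07). Neither gene overlapped between the groups.

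By FPKM, which is scaled to transcript length, the order of levels was much alike in the sorted cell groups. In SC knockout cells it ran Fos, Egr1, Jun, Junb, Jund, Ier2, Nr4a1, Fosb and Egr2, and the ranges of Junb, Jund and Ier2 overlapped along the order. In SC control cells it ran Fos, Egr1, Jund, Jun, Ier2, Junb, Nr4a1, Fosb and Egr2, and the ranges of Jund and Jun overlapped, as did those of Junb and Nr4a1. Jund stood in place 5 in SC knockout and place 3 in SC control cells.

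**Figure D2:**
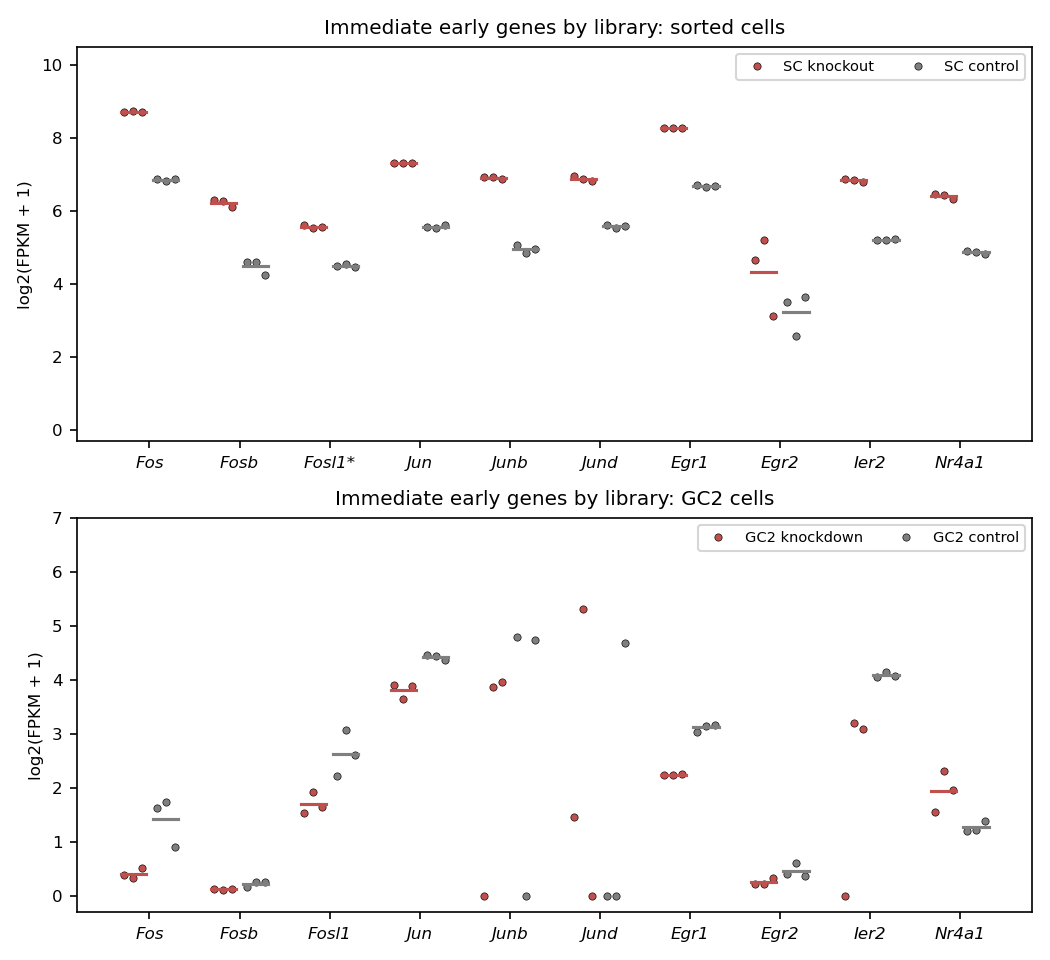
Level of each gene in each library, as log2(FPKM + 1), in sorted cells (upper panel) and GC2 cells (lower panel). Points are libraries and bars are group means, drawn only where no library is listed at 0; the asterisk marks the row that Fosl1 shares with Cfl1 and Efemp2 in sorted cells. In the upper panel only Egr2 overlaps between SC knockout and SC control, and in the lower panel Junb, Jund and Ier2 are listed at 0 in 1 or more libraries.

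Levels in GC2 cells were far lower by FPKM, though the 2 sets of files were made with separate row sets, so levels were not tested across them. Of the 10 genes 7 passed the filter, 3 fell in GC2 knockdown cells (Egr1, Jun and Fosl1) and 0 rose. Over all 10791 tested rows 13.9% were called lower and 10.7% higher. The median log2 fold change of the 7 was -0.61, against -0.04 over all tested rows. For 8 of the 10 genes the groups did not overlap, 7 of them lower and Nr4a1 higher in GC2 knockdown cells. Over all tested rows 25.3% were lower and 19.6% higher without overlap. Those shares do not cover Fos, Fosb and Egr2, which are among the 7 but did not pass the filter. Ier2, also among the 7, includes a knockdown library listed at 0.

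Egr1 had 3.73, 3.75 and 3.78 FPKM in GC2 knockdown libraries, against 7.26, 7.91 and 7.98 FPKM in GC2 control libraries. Its means were 3.75 ± 0.0252 FPKM in GC2 knockdown and 7.72 ± 0.397 FPKM in GC2 control cells (SD, n = 3 each), and it fell by 0.87 on the log2 scale (SE 0.055, adjusted p = 5.9e-04). Jun had 14.0, 11.5 and 13.8 FPKM in GC2 knockdown libraries, against 21.2, 20.7 and 19.7 FPKM in GC2 control libraries, and fell by 0.61 (SE 0.0863, adjusted p = 0.007). Fosl1, a Fos family gene also called Fra-1, which typically follows sustained ERK signalling, has a row of its own in the GC2 files. It had 1.89, 2.81 and 2.13 FPKM in GC2 knockdown libraries, against 3.69, 7.42 and 5.12 FPKM in GC2 control libraries, and fell by 0.94 (SE 0.239, adjusted p = 0.043). That call rests on single libraries: it held without the first control library (adjusted p = 0.029) and was lost when any other library was left out (adjusted p up to 0.12) and with no filter on low values (adjusted p = 0.072).

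Fos had 0.31, 0.26 and 0.44 FPKM in GC2 knockdown libraries, against 2.09, 2.37 and 0.89 FPKM in GC2 control libraries. The groups did not overlap, but Fos did not reach 1 FPKM in 3 libraries and was not tested; with no filter its log2 fold change was -1.02 (adjusted p = 0.059). Fosb stayed at or under 0.2 FPKM in all 6 GC2 libraries and Egr2 between 0.17 and 0.53 FPKM, so neither was tested. Nr4a1 had 1.95, 4.0 and 2.93 FPKM in GC2 knockdown libraries, against 1.32, 1.34 and 1.61 FPKM in GC2 control libraries. The knockdown libraries were all higher, but a change of 0.68 on the log2 scale (SE 0.202, 95% interval 0.17 to 1.19, adjusted p = 0.067) did not pass. Without the first knockdown library it was 0.87 (adjusted p = 0.02). Leaving out any other library gave 0.49 to 0.73 and no call (adjusted p 0.11 to 0.16).

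Junb, Jund and Ier2 could not be read in the same way in GC2 cells, because some libraries list them at 0. Junb was listed at 0, 13.6 and 14.6 FPKM in GC2 knockdown libraries, against 26.8, 0 and 25.8 FPKM in GC2 control libraries. Jund was listed at 1.76, 38.7 and 0 FPKM in GC2 knockdown libraries, against 0, 0 and 24.7 FPKM in GC2 control libraries. Ier2 was listed at 0, 8.18 and 7.56 FPKM in GC2 knockdown libraries, against 15.7, 16.7 and 16.0 FPKM in GC2 control libraries. None of the 3 passed the test (adjusted p 0.85, 0.83 and 0.18 for Junb, Jund and Ier2).

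The transcripts of these 3 genes have 1 exon, and zeros of this kind were frequent among such rows in the GC2 files. Of 66 coding rows of 1 transcript with 1 exon and at least 5 FPKM in some GC2 library, 50 were listed at 0 in at least 1 library (75.8%), and 33.3% to 47.0% were listed at 0 in any given library. Of 495 rows whose transcript has at least 3 exons, 0 were. In the sorted cell files the shares were 10.6% of 217 rows with 1 exon and 7.54% of 464 rows with at least 3 exons, and 0 of the 10 immediate early rows held a 0. With such zeros treated as missing, an alternative added after seeing the data, the log2 fold change in GC2 knockdown cells was -0.86 for Junb (adjusted p = 0.0072, 4 libraries) and -0.95 for Ier2 (adjusted p = 0.0017, 5 libraries). For Jund it was -1.30 (adjusted p = 0.72, 3 libraries). That alternative calls 5 of the genes lower.

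**Figure D3:**
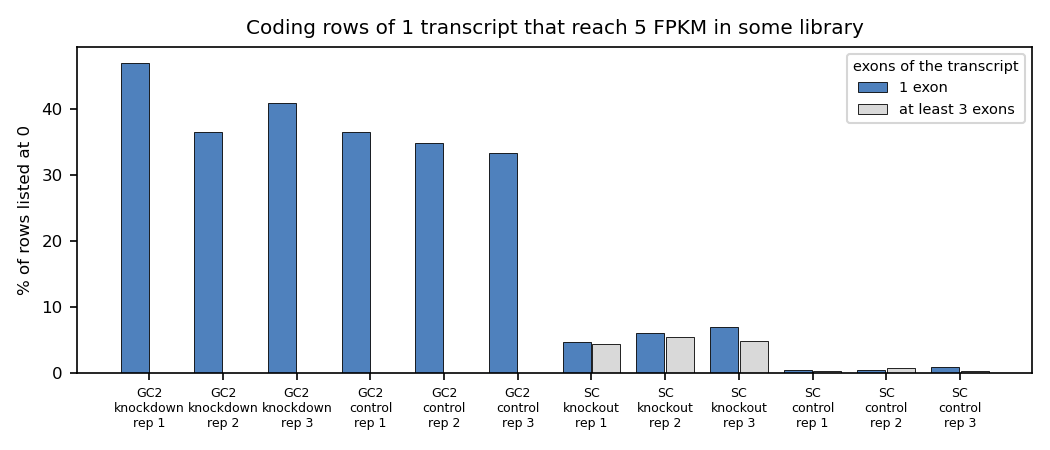
Share of coding rows listed at 0 in each library, in percent, among rows of 1 transcript that reach 5 FPKM in some library of that kind; blue bars are rows whose transcript has 1 exon, grey bars rows with at least 3 exons. The 6 GC2 libraries list 33.3% to 47.0% of the 1-exon rows at 0 and none of the others.

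**Figure D4:**
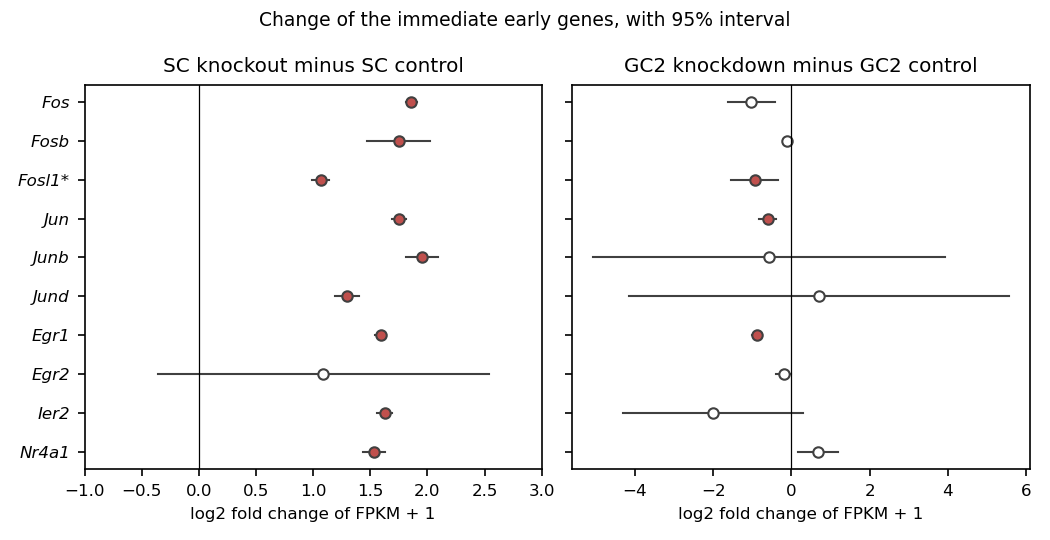
Log2 fold change of FPKM + 1 with its 95% interval for each gene, SC knockout minus SC control (left) and GC2 knockdown minus GC2 control (right). Filled points passed an adjusted p of 0.05, open points did not or were not tested (Fos, Fosb and Egr2 in GC2, drawn from the fit without a filter), and the asterisk marks the row Fosl1 shares in sorted cells. On the left 9 rows are filled and above 0; on the right Egr1, Jun and Fosl1 are filled and below 0. The 2 x axes differ in range.

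The difference between the 2 changes was tested in 1 fit over all 12 libraries for the 6 genes that passed the filter in both kinds of cell and have a row of their own in both. It passed for 4 of them, each with the more positive change in sorted cells, while 38.1% of 8754 rows passed in that direction and 60.7% in either. The change in sorted cells exceeded that in GC2 cells by 2.47 on the log2 scale for Egr1 (SE 0.053, adjusted p = 6.4e-10) and by 2.36 for Jun (SE 0.0917, adjusted p = 2.2e-08). For Nr4a1 the excess was 0.86 (SE 0.216, adjusted p = 0.0063), with both changes above 0. For Ier2 it was 3.63 (SE 0.965, adjusted p = 0.0085), and 2.58 (adjusted p = 4.6e-09) with the 0 of the first knockdown library treated as missing. With a pseudocount of 0.1 in place of 1 the calls for Nr4a1 (0.61, adjusted p = 0.092) and Ier2 (4.78, adjusted p = 0.057) were lost and 2 were left. Junb (2.52, adjusted p = 0.28) and Jund (0.60, adjusted p = 0.82) did not pass. With their zeros treated as missing, the alternative added after seeing the data, the excess was 2.81 for Junb (adjusted p = 1.0e-07, 10 libraries). For Jund it was then 2.59 (9 libraries). The kinds of cell also differ in source, handling and row set, which cannot be told apart from the way Phb was reduced. The log2 fold change of Phb itself was -1.40 in GC2 knockdown and -0.18 in SC knockout cells. Cell type markers also differed between the sorted cell groups, as given above. These differences cannot be told apart from a difference in response to Phb loss.

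The rest of the immediate early response was read from a list of 30 other genes, some of which also stand in the lists of feedback genes and bZIP factors below. In sorted cells 26 of 30 rose in SC knockout cells, 2 fell and the median log2 fold change was 1.37, where over all tested rows 40.9% were higher, 38.5% lower and the median was 0.05. Ccn1, a secreted matrix protein, averaged 377 ± 2.1 FPKM in SC knockout and 90.2 ± 2.14 FPKM in SC control cells (log2 fold change 2.05, adjusted p = 1.8e-08). Atf3, a stress-induced bZIP factor, averaged 106 ± 2.62 FPKM in SC knockout and 22.1 ± 0.457 FPKM in SC control cells (2.21, adjusted p = 2.3e-08), and Klf6, a zinc finger factor, rose by 2.05. Ccn2, a matrix protein related to Ccn1, rose by 1.98, and Rhob, a small GTPase, by 1.96. Arc, known in neurons for its synaptic protein, moved the other way and averaged 3.74 ± 0.0586 FPKM in SC knockout and 42.9 ± 0.966 FPKM in SC control cells (-3.21, adjusted p = 1.0e-08; SD, n = 3 each throughout). Egr4, the remaining gene that fell, is a relative of Egr1 (-0.30, adjusted p = 0.0031). In GC2 cells 4 of 25 rose, 4 fell and the median was 0.38, where over all tested rows 10.7% were higher, 13.9% lower and the median was -0.04. The 25 include Rhob and Ier5, each with a library listed at 0. Leaving out single libraries in GC2 cells gave 2 to 4 higher and 2 to 3 lower. There Phlda1 rose by 0.63 and Maff by 0.42, while Gadd45b fell by 0.63, Klf10 by 0.31 and Myc by 0.37. Ccn1, higher in SC knockout cells, fell in GC2 cells, with 17.6 ± 4.8 FPKM in GC2 knockdown and 36.3 ± 7.12 FPKM in GC2 control cells (-1.02, adjusted p = 0.04; SD, n = 3 each).

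Of the feedback inhibitors and corepressors in sorted cells, 14 of 15 rose in SC knockout cells, 0 fell and the median was 0.99. Over all tested rows there 40.9% were higher and 38.5% lower, and the median was 0.05. Zfp36, whose protein speeds the decay of immediate early mRNAs, rose by 1.61, and its relative Zfp36l1 by 1.14. The dual specificity phosphatases Dusp1 (0.99), Dusp5 (1.29), Dusp6 (1.45) and Dusp8 (1.31), which remove phosphates from MAP kinases, rose as well. In GC2 knockdown cells 0 of 13 rose and 3 fell, where over all tested rows 10.7% were higher and 13.9% lower. Nab2, the corepressor of Egr1 and itself an Egr1 target, averaged 5.85 ± 0.131 FPKM in GC2 knockdown and 9.73 ± 0.388 FPKM in GC2 control cells (-0.65, adjusted p = 0.0012; SD, n = 3 each), and Zfp36l1 and Dusp5 fell by 0.75 and 0.48.

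Of the upstream factors and MAP kinases in sorted cells, 11 of 19 rose in SC knockout cells, 4 fell and the median was 0.38. Over all tested rows there 40.9% were higher and 38.5% lower, and the median was 0.05. Map2k4, the kinase that activates JNK, rose by 1.33, Rps6ka3, a kinase downstream of ERK, by 1.12, Mapk9 (JNK2) by 0.90, and Mapk3, a MAP kinase gene, by 0.63. Among those that fell were Mrtfa, an SRF coactivator, by 0.56, Map2k2, a kinase that activates ERK, by 0.36, and Rps6ka1, a kinase downstream of ERK, by 0.27. In GC2 knockdown cells 2 of 21 rose (1 to 4 when single libraries were left out), Mapk3 by 0.40 and Rps6ka1 by 0.42, and 1 fell. Over all tested rows 10.7% were higher and 13.9% lower, so the count of rises lies near its share. Of the bZIP factors that can pair with Fos or Jun proteins, 7 of 8 rose in SC knockout cells, 1 fell (Ddit3, a factor of the integrated stress response, by 0.39) and the median was 1.48. The shares over all tested rows in sorted cells are again 40.9% higher and 38.5% lower. Mafk rose by 1.60 and Fosl2 by 1.55. In GC2 cells Mafk went the other way, with 1.87, 1.74 and 2.24 FPKM in GC2 knockdown libraries, against 11.4, 10.6 and 10.3 FPKM in GC2 control libraries (-2.00, adjusted p = 1.7e-04).

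Of 14 tested genes known to respond to AP-1 or growth factors, 11 rose and 2 fell in SC knockout cells, with a median of 0.87. Among all tested rows in sorted cells 40.9% were higher and 38.5% lower, with a median of 0.05. Thbs1 (thrombospondin) rose by 2.38, Timp1, a protease inhibitor, by 2.13 and Mmp14, a membrane protease, by 1.73, while Odc1 (ornithine decarboxylase) fell by 0.69. In GC2 knockdown cells 6 of 20 rose and 8 fell, against 10.7% and 13.9% of all tested rows, and leaving out single libraries gave 3 to 6 higher and 4 to 7 lower. Thbs1 fell there, with 10.8 ± 0.675 FPKM in GC2 knockdown and 29.2 ± 0.637 FPKM in GC2 control cells (-1.36, adjusted p = 1.7e-04; SD, n = 3 each). Timp1 fell by 0.89, and Il6 and Mmp9 by 1.14 and 1.23 at levels under 2 FPKM. Ccnd1 (cyclin D1) rose by 1.19.

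**Figure D5:**
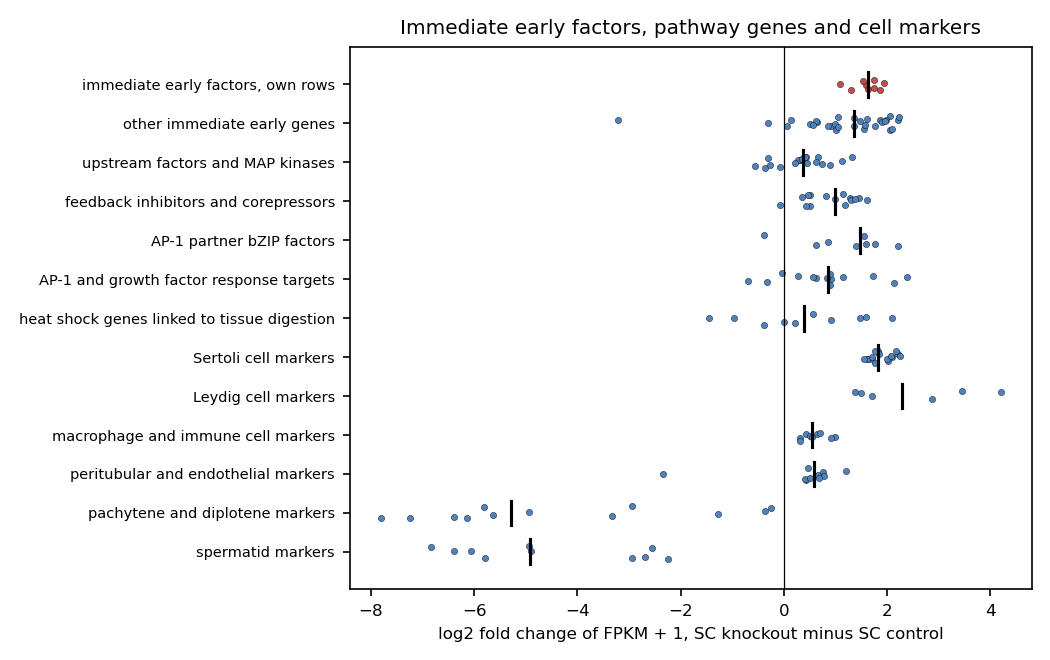
Log2 fold change of FPKM + 1, SC knockout minus SC control, for the immediate early factors with a row of their own (red) and the tested genes of each list (blue). Each point is a gene, black bars are medians and vertical jitter only separates points. Medians are 1.83 for Sertoli cell markers and 1.37 for the other immediate early genes, and Fos (1.86) and Junb (1.95) lie above both, while spermatocyte and spermatid markers lie below 0.

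In the sorted cells, markers of several other cell types moved with the immediate early genes, and their part in the rise was not tested. The counts below stand beside 40.9% of all tested rows called higher and 38.5% called lower in SC knockout cells. Sertoli cell markers were 4.19-fold higher by summed FPKM, 16 of 16 tested were called higher, and their median log2 fold change of 1.83 stood beside 1.61 for the immediate early rows. Clu, the most abundant of them, averaged 1270.2 FPKM in SC knockout and 296 FPKM in SC control cells, and the defining markers Sox9 and Wt1 averaged 34.1 and 30.5 FPKM in SC knockout, against 9.67 and 9.11 FPKM in SC control cells. Leydig cell markers rose in 6 of 6 tested, with sums of 309 to 339 FPKM in SC knockout and 55.2 to 57.1 FPKM in SC control libraries; Fabp3 was the most abundant. Macrophage and immune markers rose in 8 of 9, with sums of 41.1 to 43.9 FPKM in SC knockout and 20.1 to 27.1 FPKM in SC control libraries. Peritubular and endothelial markers rose in 9 of 10 and fell in 1, with sums of 68.9 to 70.7 FPKM in SC knockout and 46.7 to 47.3 FPKM in SC control libraries. Spermatid markers fell in 10 of 10, with sums of 6.97 to 9.46 FPKM in SC knockout and 834 to 867 FPKM in SC control libraries. No listed Sertoli or Leydig marker was at 0 in all libraries of a sorted cell group.

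In GC2 cells 3 of 6 tested Sertoli markers were called higher, with sums of 218 to 220 FPKM in GC2 knockdown and 209 to 220 FPKM in GC2 control libraries. Among all tested rows there 10.7% were called higher and 13.9% lower. Acta2 (smooth muscle actin, an SRF target) was the 1 tested peritubular marker and averaged 16.8 ± 0.716 FPKM in GC2 knockdown and 93.8 ± 4.53 FPKM in GC2 control cells (-2.41, adjusted p = 3.1e-05; SD, n = 3 each). The part of these markers in the GC2 values was not tested.

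The genes whose pattern was most like that of Fos and Egr1 were ranked by Pearson r over the 12 libraries after subtracting the mean of each kind of cell, among 8049 genes. These values describe libraries that share their groups, and no test was made. For Fos they were Vcpkmt (0.990), Plscr3 (0.988), Rbmx (0.988), Uggt1 (0.986) and D2hgdh (0.985). For Egr1 they were Thbs1 and Kcnh2 (0.997 each) and P4ha1, Phgdh and Fkbp10 (0.995 each). None of the 10 immediate early genes was among either set of 5, but only genes tested in both kinds of cell could appear. That left out Fos, Fosb, Fosl1 and Egr2, and Junb, Jund and Ier2 hold zeros in GC2 libraries.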

How the data were processed

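RNA sequencing values of 12 libraries were used as FPKM per gene row, as deposited by the authors. The submitters' processing notes list HISAT2 2.1.0, DESeq, GRCm38 and mm10 without saying what each was used for. Library kits kept strand, per the labels' protocols. The 25911 rows of the GC2 files and 36987 of the sorted cell files differ, so each kind was fitted alone; 1200 and 164 rows without a gene name were left out. FPKM totals were 194949 to 206711 in GC2 and 289707 to 297362 in sorted cells. Low values gave no whole-read steps (score 0.11 to 0.27, where 1 is exact), so depth is unknown. Pearson r between replicates was 0.924 to 0.937 in GC2 and 0.984 to 0.988 in sorted cells.

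Rows with at least 1 FPKM in at least 3 of 6 libraries were tested on log2(FPKM + 1) with limma 3.58.1 with trend (R 4.3.3) and Benjamini-Hochberg adjustment over all tested rows at 0.05; fold changes on this scale understate those of low genes. Errors are SD over 3 libraries. The difference of changes was fitted as an interaction over 12 libraries. The fit was tested on simulated data. The ratio of families used an exact permutation test in sorted cells; in GC2 cells the zeros of Junb and Jund leave it unreadable. Alternatives were another pseudocount, no filter, quantile normalization, median centring, a replicate block, removal of mitochondrial rows, summed rows, leaving out each library and zeros as missing. Of each list up to 6 called genes with the smallest adjusted p, the most abundant marker and the 5 most alike genes were to be named; others named here, such as Sox9, Wt1, Rhob and Ier5 in GC2, Bag3, Mrtfa, Map2k2, Egr4 and Ddit3, were chosen after their values were seen. The genes and lists were chosen with earlier results of these data known. Motifs were searched in RefSeq promoter windows. Symbols follow the sorted cell files (Ccn1 is Cyr61 in the GC2 files). A few genes of the upstream list are not reported here.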

Additional observations from a re-analysis of the deposited data

Results flagged for a closer look

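The change in sorted cells (SC knockout minus SC control) differed from that in GC2 cells (GC2 knockdown minus GC2 control) by an interaction test for 4 genes of 6 tested, where 60.7% of all 8754 rows tested in both passed in either direction and 38.1% with the more positive change in sorted cells. The differences of the log2 fold changes were 2.36 for Jun, 2.47 for Egr1, 3.63 for Ier2 and 0.86 for Nr4a1. With a pseudocount of 0.1 the calls for Ier2 (adjusted p = 0.057) and Nr4a1 (adjusted p = 0.092) were lost. For Fos and Fosb the groups did not overlap and moved in opposite directions in the 2 kinds of cell. Both were under the filter in GC2 cells, so the main fit did not test the difference. In the interaction test without a filter it was 2.88 for Fos (adjusted p = 4.0e-06) and 1.85 for Fosb (adjusted p = 1.1e-06). For Fosb, at or under 0.2 FPKM in GC2 cells, that value holds little beyond the change of 1.75 in sorted cells. The value for Ier2 includes 1 GC2 knockdown library listed at 0.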

How the results depend on the processing

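The 9 rows called higher in sorted cells kept their direction and call under every alternative run there. Pseudocount 0.1 left 2 differences between the kinds of cell called, with Ier2 at 4.78 (adjusted p = 0.057) and Nr4a1 at 0.61 (adjusted p = 0.092), and turned Jund to -0.31. Zeros as missing called 5 genes lower in GC2 cells, turned Jund there to -1.30 and called the Junb difference between the kinds of cell (2.81, adjusted p = 1.0e-07). Leaving out 1 library turned Junb in GC2 cells to 0.24, 0.21 or 0.73 (range -2.16 to 0.73), Jund to -0.08 (range -0.08 to 1.83), and the Jund difference to -0.53 (range -0.53 to 1.38), and the cause was not tested. No filter gave 2 bZIP factors lower in sorted cells, median centring 1 other immediate early gene lower there, and the shared Fosl1 row a family ratio difference of 0.0922. Replicate numbers did not pair the samples (r 0.061 to 0.124 in GC2 and -0.054 to 0.007 in sorted cells). A replicate block gave 1 upstream gene and 0 heat shock genes higher in GC2 cells.

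Leaving out 1 library in turn gave 0 to 1 of the 10 genes higher and 2 to 3 lower in GC2 cells (the 1 is Nr4a1, without the first knockdown library), 9 to 10 higher in sorted cells, 4 to 5 differences called, and a family ratio difference of 0.133 to 0.17. In GC2 cells it gave 1 to 4 upstream genes higher and 1 to 2 lower, 1 to 2 bZIP factors higher, 3 to 6 targets higher and 4 to 7 lower, and 0 to 1 heat shock genes in each direction. Other immediate early genes were 2 to 4 higher and 2 to 3 lower there, and 0 to 1 feedback genes were lower in sorted cells. Over all rows it gave 662 to 876 higher and 833 to 1292 lower in GC2 cells, against 1153 and 1496 with all libraries, and 3595 to 6011 lower in sorted cells, against 6139, where fewer rows pass the filter with a control library left out.
FPKM without depth, 3 libraries a group and rows shared by several genes limit what can be read.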

Other observations

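Heat shock genes, which tissue digestion can induce, were listed beside the immediate early genes. In SC knockout cells 5 of 10 tested rose and 3 fell, with a median log2 fold change of 0.39, and over all tested rows 40.9% were higher and 38.5% lower. Hspb1, a small heat shock protein, averaged 206 ± 1.21 FPKM in SC knockout and 47.6 ± 1.20 FPKM in SC control cells (log2 fold change 2.09, adjusted p = 1.8e-08; SD, n = 3 each). Hspa1b and Hspa1a, the inducible HSP70 genes, rose by 1.60 and 1.47, and the mitochondrial chaperonin gene Hspd1 by 0.91. Hspa1a and Hspa1b are near-identical copies, so their split is uncertain. Dnajb1 fell by 1.45 and Hsp90aa1 by 0.96. In GC2 knockdown cells 1 of 9 rose, Bag3 by 0.24, and 1 fell, Hspe1 by 0.44. Bag3 was no longer called when a control library was left out or a replicate block was fitted, and Hspe1 was called only with all libraries, with the block or without the first knockdown library, among these fits.

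Other immediate early genes in GC2 cells showed zeros like those of Junb. Rhob was listed at 0, 63.0 and 60.8 FPKM in GC2 knockdown libraries, against 46.3, 54.3 and 55.8 FPKM in GC2 control libraries. Ier5 was listed at 12.2, 12.7 and 11.8 FPKM in GC2 knockdown libraries, against 11.8, 12.8 and 0 FPKM in GC2 control libraries.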
